A study of Mus musculus with 6 samples.

Results

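The 8 genes described here encode the mouse AP-1 transcription factors Fos, Fosb, Fosl1, Fosl2, Jun, Junb and Jund, together with Atf3, a related factor that pairs with Jun proteins. They were taken by gene symbol from a table of 52513 genes, and all 8 were found in it. RNA was measured in lumbar cord tissue, L4 to L5, after 7 days of intrathecal morphine (10 µg in 10 µL) or intrathecal saline in wild-type mice, with 3 libraries per group. The sources used here do not give the strain, age or sex of the mice, the time between the last injection and dissection, or whether a library pooled several animals. If the libraries of a group are not separate animals or pools of animals, the p-values below measure only technical spread between them.

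AP-1 proteins carry a basic region that contacts DNA and a leucine zipper that joins 2 subunits into a dimer. Jun proteins can pair with each other or with a Fos protein, while Fos proteins need a Jun partner, so the set of subunits a cell makes decides which dimers can form. Fos, Fosb and Junb are immediate early genes, switched on briefly by calcium, cyclic AMP and growth factor signals. Fos in the dorsal horn is a long-used sign of nociceptive input. Jund is made steadily in most cells, and Atf3 appears in injured neurons and stressed cells.

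The bases around RefSeq transcript starts of the genes are shown. Signals reach Fos and its relatives through short elements near such starts, among them the cyclic AMP response element that Creb1 binds. RefSeq windows on GRCm38.p6, running from 250 bases before to 50 bases after the start, were at hand for 7 of the 8 genes (all but Fosl1), and 4 of them follow, 5′ to 3′ on the strand of the gene. Fos lies at chr12:85473640-85473939 (plus strand), Fosb at chr7:19309996-19310295 (minus), Jun at chr4:95052173-95052472 (minus) and Atf3 at chr1:191183284-191183583 (minus). Capitals mark TGACG, the core of the cyclic AMP response element, on either strand, and in Jun the AP-1-like element TGACATCA.
Fos: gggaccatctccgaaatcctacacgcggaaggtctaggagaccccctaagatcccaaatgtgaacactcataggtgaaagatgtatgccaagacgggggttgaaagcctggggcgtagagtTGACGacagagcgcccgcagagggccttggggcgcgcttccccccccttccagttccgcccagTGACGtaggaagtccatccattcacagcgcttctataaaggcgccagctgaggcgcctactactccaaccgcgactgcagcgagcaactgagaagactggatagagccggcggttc
Fosb: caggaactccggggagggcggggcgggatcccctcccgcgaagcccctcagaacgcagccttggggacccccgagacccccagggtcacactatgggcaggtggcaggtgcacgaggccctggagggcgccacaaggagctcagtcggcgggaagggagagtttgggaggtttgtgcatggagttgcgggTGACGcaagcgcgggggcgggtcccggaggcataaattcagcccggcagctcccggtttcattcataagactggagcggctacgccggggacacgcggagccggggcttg
Jun: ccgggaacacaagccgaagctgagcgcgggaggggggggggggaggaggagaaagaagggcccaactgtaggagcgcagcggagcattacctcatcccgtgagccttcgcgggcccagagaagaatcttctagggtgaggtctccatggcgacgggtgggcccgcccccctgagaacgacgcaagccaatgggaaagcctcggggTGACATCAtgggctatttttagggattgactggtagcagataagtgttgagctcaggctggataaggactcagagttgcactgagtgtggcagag
Atf3: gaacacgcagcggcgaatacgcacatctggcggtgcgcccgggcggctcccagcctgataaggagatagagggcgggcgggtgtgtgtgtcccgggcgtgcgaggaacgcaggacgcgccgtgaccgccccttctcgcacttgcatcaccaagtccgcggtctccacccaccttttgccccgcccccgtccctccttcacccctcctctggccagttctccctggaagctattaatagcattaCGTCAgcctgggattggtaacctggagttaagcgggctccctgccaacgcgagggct
TGACG was found in the windows of 4 of 7 genes (Fos, Fosb, Junb and Atf3), and in 20.8% of 32817 windows of the same length genome-wide. Fos held it at 2 places, 129 and 66 bases before the start. TGACATCA was found in the window of Jun alone among the 7, 45 bases before the start, and in 3.6% of all windows. The full elements TGACTCA and TGACGTCA and the serum response CArG box were in none of the 7 windows and in 5.2%, 1.8% and 1.6% of all windows. Sequence more than 250 bases before the start was not searched, so a gene may hold these elements outside its window. The Jund window lies 1210 bases upstream of the only Jund transcript start in GENCODE M21. The Atf3 window lies inside the annotated gene, with its start 7 bases from the nearest GENCODE transcript start. The RefSeq start of Fosl2 lies 299 bases downstream of the nearest GENCODE start. These matches describe letters in the window and not binding.

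The comparison of morphine with saline asks what a week of intrathecal morphine, which the series title links to tolerance, leaves in the transcripts of the cord. Fos transcript fell in morphine, with every morphine library below every saline library, and it was the 1 AP-1 gene that passed the test. Fosb and Fosl2 were lower and Jund was higher in all 3 morphine libraries than in any saline library, without passing. Jun, Junb, Fosl1 and Atf3 overlapped between the groups. These placements are of FPKM as deposited, and those of Jun, Junb and Jund changed with the libraries rescaled to 1 common total. Of the 7 genes expressed well enough to be tested (at least 1 FPKM in at least 3 libraries), 1 was called at an adjusted p under 0.05, and 1.51% of all 14614 tested genes were called (0.561% lower, 0.944% higher). That balance depended on scaling: 138 genes were called higher and 82 lower as deposited, and 101 higher and 853 lower with the libraries rescaled to TPM. FPKM values are fragments scaled to transcript length and to library size, so levels can be set beside each other between genes. In whole tissue, fewer cells of a type and less RNA per cell cannot be told apart.

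**Figure D1:**
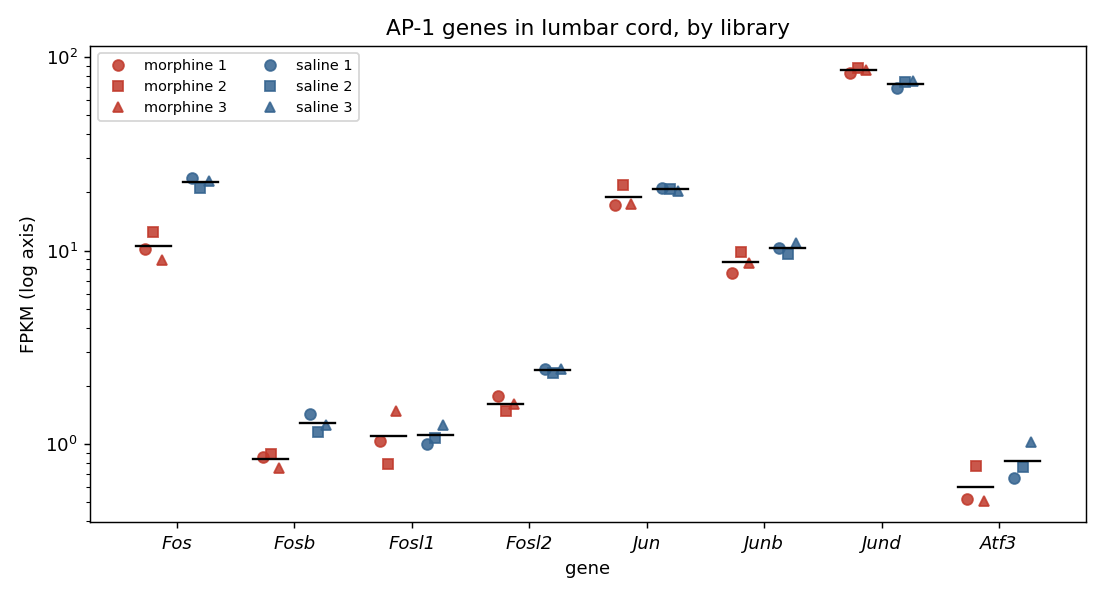
FPKM (log axis) of the 8 genes in each library, with morphine at the left and saline at the right of each pair; marker shapes give the library number and black bars the group means. Fos lies at 8.97 to 12.49 FPKM in morphine and 21.18 to 23.77 FPKM in saline, and Jund is the one gene whose morphine points all lie above its saline points.

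Fos (ENSMUSG00000021250, chromosome 12 from 85473890 to 85477273, plus strand, 4 exons in its longest transcript) encodes the best-known activity-induced partner of Jun. It was at 10.23, 12.49 and 8.97 FPKM in morphine 1, 2 and 3, and at 21.18 to 23.77 FPKM in saline (23.77, 21.18 and 22.95). The highest morphine library was 8.69 FPKM below the lowest saline library. The mean was 10.6 ± 1.78 FPKM in morphine and 22.6 ± 1.32 FPKM in saline (SD, n = 3 each), so that morphine stood at 46.7% of the saline level. On the log2(FPKM + 1) scale the fold change was -1.04 (SE 0.12, 95% interval -1.32 to -0.77, limma adjusted p = 0.0361), and by p-value Fos was number 14 of the 14614 genes. An exact permutation test on FPKM, two-sided, gave p = 0.1, and no smaller p can come from 3 against 3 libraries.

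The depth was estimated from the steps of low FPKM values at about 17600000 to 19600000 fragments per morphine library and 21200000 to 25700000 per saline library. Fos then rested on about 311 to 417 fragments per morphine library and 921 to 1031 per saline library. Counting error alone (95% Poisson intervals) spanned 277.4 to 347.6 fragments in the lowest library, morphine 3, and 862.5 to 982.5 in the lowest saline library, saline 3, and it does not cover variation between animals. The size of the Fos difference stayed between -1.16 and -0.94 when any 1 library was left out, but the call did not. It was also lost with no filter on low values (limma adjusted p = 0.145). With 1 library left out, the adjusted p was 0.0110 without morphine 2, 0.152 without morphine 1, 0.103 without morphine 3, and 0.146, 0.123 and 0.0925 without saline 1, 2 and 3. In the fits with 1 library left out that lost the call, between 1 and 8 genes of the whole table passed, and without morphine 2 there were 805. With no filter on low values 45 genes passed.

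Fosb (ENSMUSG00000003545, chromosome 7 from 19302696 to 19310051, minus strand) encodes a subunit whose shortened form, made by splicing, builds up with repeated drug exposure in the striatum of rodents. A gene-level value does not separate the 2 forms. Fosb was at 0.86, 0.89 and 0.75 FPKM in morphine and at 1.43, 1.16 and 1.26 FPKM in saline. No morphine value reached the lowest saline value. It passed the level filter through its 3 saline libraries alone, so its place among tested genes already leans on that difference. The log2 fold change was -0.32 (SE 0.11, 95% interval -0.57 to -0.06, limma adjusted p = 0.154), on about 49 to 60 fragments per morphine library and 95 to 109 per saline library.

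Fosl2 (ENSMUSG00000029135, chromosome 5 from 32135801 to 32157842, plus strand) encodes Fra-2, a Fos relative that lacks the strong activating end of Fos. It was at 1.77, 1.48 and 1.61 FPKM in morphine and at 2.45, 2.33 and 2.43 FPKM in saline. The saline libraries lay within 0.12 FPKM of each other and all above morphine. The log2 fold change was -0.38 (SE 0.09, 95% interval -0.60 to -0.16), with a limma adjusted p of 0.0800. With the libraries rescaled to 1 common total, as TPM (a per-transcript share of each library), under which the median of all tested genes stood at -0.13 in place of -0.02, the log2 fold change was -0.52 and passed (adjusted p = 0.0407).

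Fosl1 (ENSMUSG00000024912, chromosome 19 from 5447547 to 5455946, plus strand) encodes Fra-1, itself a known target of AP-1. It was at 1.04, 0.79 and 1.48 FPKM in morphine and at 1.0, 1.08 and 1.25 FPKM in saline. The highest and the lowest of the 6 values were both morphine libraries. The log2 fold change was -0.02 (95% interval -0.36 to 0.33), an interval that holds differences in either direction. Fosl1 shares 1163 nt of exonic sequence with Ccdc85b on the opposite strand, which was at 103 FPKM in morphine and 86.6 FPKM in saline on average. The sources used here do not say whether the authors counted by strand, so part of the Fosl1 value may belong to Ccdc85b.

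Jun (ENSMUSG00000052684, chromosome 4 from 95049034 to 95052222, minus strand, a single exon) encodes the main activating partner of Fos and the target of the JNK kinases. It was at 17.31, 21.89 and 17.52 FPKM in morphine and at 21.16, 20.74 and 20.41 FPKM in saline. Morphine 2 was the highest of all 6 libraries, and the other two morphine libraries were the lowest. The log2 fold change was -0.14 (SE 0.10, 95% interval -0.36 to 0.09, limma adjusted p = 0.444). Rescaled to TPM it was -0.26 (limma unadjusted p = 0.0359, adjusted p = 0.132), with every morphine library below every saline library. The spread over libraries was 2.59 FPKM in morphine and 0.376 FPKM in saline (SD, n = 3 each).

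Junb (ENSMUSG00000052837, chromosome 8 from 84974484 to 84978718, minus strand) encodes a Jun protein that activates more weakly than Jun and can hold it back. It was at 7.62, 9.85 and 8.58 FPKM in morphine and at 10.28, 9.65 and 10.89 FPKM in saline. Morphine 2 lay inside the saline range and the other two below it. The log2 fold change was -0.22 (SE 0.10, 95% interval -0.46 to 0.01, limma adjusted p = 0.248). Rescaled to TPM it was -0.35 (limma unadjusted p = 0.0151, adjusted p = 0.0881), with every morphine library below every saline library. The gene shares 173 nt of exonic sequence with Prdx2 on the opposite strand, which was at 330 FPKM in morphine and 281 FPKM in saline on average.

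Jund (ENSMUSG00000071076, chromosome 8 from 70698949 to 70700616, plus strand, a single exon) was the most abundant AP-1 transcript, higher in saline than 90.4% of tested genes. It was at 83.32, 88.41 and 85.85 FPKM in morphine and at 69.45, 74.09 and 75.16 FPKM in saline. The lowest morphine library was 8.16 FPKM above the highest saline library. The mean was 17.8% higher in morphine (85.9 ± 2.55 FPKM, against 72.9 ± 3.04 FPKM in saline, SD, n = 3 each), with a log2 fold change of 0.23 (SE 0.06, 95% interval 0.10 to 0.37, limma adjusted p = 0.0752). Its direction held under each scaling tried, but not its size. Rescaled to TPM the log2 fold change was 0.11 (95% interval -0.04 to 0.25, limma adjusted p = 0.274), and the groups overlapped. After quantile normalization it was 0.18 (limma adjusted p = 0.135).

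The exon of Jund shares 877 of its 1668 nt with Gm11175, an antisense gene. Gm11175 was at 36.76, 23.58 and 32.86 FPKM in morphine and at 18.37, 18.31 and 13.81 FPKM in saline, so its groups did not overlap either (log2 fold change 0.83, limma adjusted p = 0.0616). Without knowledge of strand in counting, reads of the 2 genes cannot be told apart. Jund is also rich in G and C (67.1% of its transcript, against 51.9% for Fos). With a trend on base composition removed from each library, a step added after seeing the data, its log2 fold change was 0.12, and that of Fos was -1.04.

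Atf3 (ENSMUSG00000026628, chromosome 1 from 191170296 to 191218039, minus strand) was below the level set for testing. It was at 0.52, 0.77 and 0.51 FPKM in morphine and at 0.67, 0.76 and 1.03 FPKM in saline. Morphine 2 lay inside the saline range. Fitted without the filter, its log2 fold change was -0.18 (95% interval -0.50 to 0.13, limma unadjusted p = 0.190, adjusted p = 1.0). About 17 to 24 fragments per morphine library and 25 to 39 per saline library stood behind it, and a log2 fold change as large as that of Fosb, -0.32, lies within its interval.

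**Figure D2:**
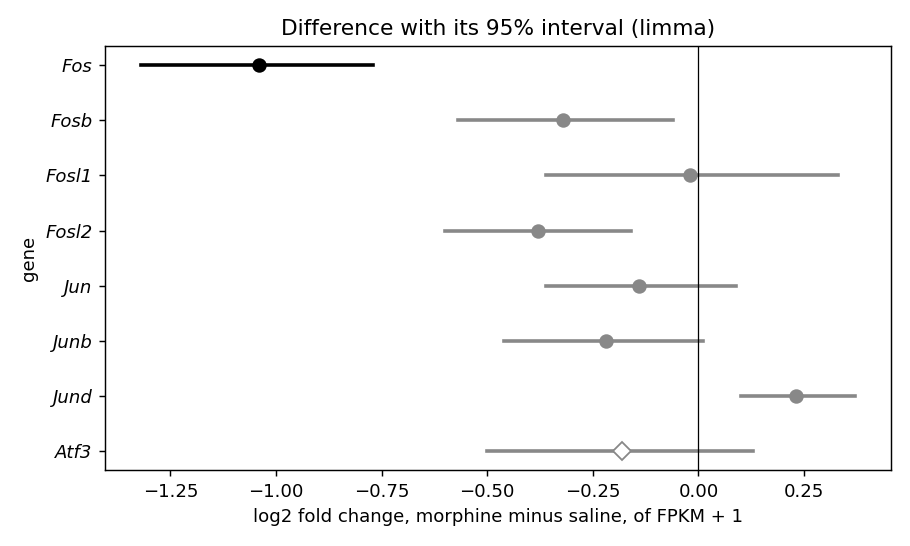
Log2 fold change (morphine minus saline, of FPKM + 1) of each gene with its 95% interval from limma; black marks an adjusted p under 0.05, grey the others, and the open diamond Atf3, which was fitted without the level filter. Fos lies at -1.04, apart from the other intervals, and Jund is the only gene to the right of 0.

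Among the 7 tested genes, 3 were lower and 1 was higher without overlap between the groups, where 15.7% of all tested genes were lower and 13% higher in this way (28.7% in either direction). At an unadjusted p under 0.05 there were 3 lower (Fos, Fosb and Fosl2) and 1 higher (Jund), against 11.1% lower and 11.2% higher among all tested genes (22.3% in either direction). Fosb is in both counts of lower genes only because its saline libraries passed the level filter. Among all tested genes that share also depended on scaling, with 1643 higher and 1618 lower as deposited and 628 higher and 3968 lower rescaled to TPM. Rescaled in this way, Jun and Junb were also lower at an unadjusted p under 0.05 in limma, and Jund was not higher at that p. The median log2 fold change of the 7 was -0.22, and that of all tested genes -0.02. Because the genes were chosen by name with earlier results of these data known, these counts describe the genes and test nothing.

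The order of the levels differed between the groups for Jun and Fos, and for Fosl1 and Fosb. In morphine Jund was followed by Jun, then Fos and Junb, whose ranges overlapped. In saline Jund was followed by Fos, then Jun, then Junb, with no overlap between neighbours, although Fos and Jun were only 0.02 FPKM apart at their nearest libraries. Fosl2 followed Junb in both groups. The ranges of Fosl2 and Fosl1, Fosl1 and Fosb, and Fosb and Atf3 overlapped in morphine, and those of Fosb and Fosl1 and of Fosl1 and Atf3 in saline.

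The summed level of the 8 genes overlapped between the groups in FPKM as deposited, while its make-up differed. All genes together totalled 720234 to 741145 FPKM in morphine libraries and 662470 to 670280 FPKM in saline libraries. Set against these totals, the summed level was lower in every morphine library than in any saline library. The sum was 122.7, 136.6 and 125.3 FPKM in morphine and 130.2, 131.0 and 135.4 FPKM in saline. The 4 Fos family genes made up 11.0% ± 0.700 of it in morphine and 20.8% ± 1.16 in saline (SD, n = 3 each). Jund alone made up 64.7% to 68.5% in morphine and 53.3% to 56.6% in saline. Fos stood at 0.512 to 0.591 of the Jun level in morphine and at 1.02 to 1.12 of it in saline. Jund exceeded Fos 7.08 to 9.57 times in morphine and 2.92 to 3.50 times in saline. The same values entered the tests above, and these shares are of transcripts, not of proteins or dimers.

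**Figure D3:**
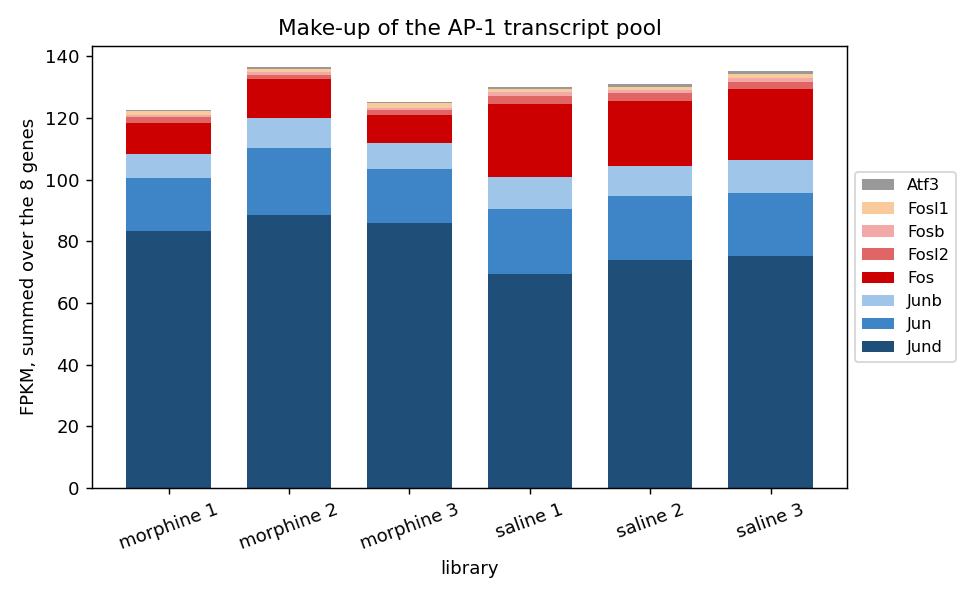
FPKM of the 8 genes stacked in each library, with morphine libraries at the left. In FPKM as deposited the bars are of similar height, 122.7 to 136.6 FPKM in morphine and 130.2 to 135.4 FPKM in saline. The red Fos segment is smaller and the dark blue Jund segment larger in morphine.

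Within the morphine group 1 library was the highest for most of the 8 genes. Morphine 2 was the highest morphine library for 6 of the 8 genes (Fos, Fosb, Jun, Junb, Jund and Atf3). For Fosb the lead was slight, 0.89 FPKM against 0.86 FPKM in morphine 1. How many of all tested genes were highest in morphine 2 was not counted. Saline libraries had no such order, with saline 1 highest for 4 genes and saline 3 for the other 4. Morphine 2 also held the most motor and cholinergic neuron marker RNA of its group. The mean log2 level of 9 such markers was 3.04, 4.23 and 2.24 in morphine 1, 2 and 3 and 4.32, 4.22 and 2.56 in saline 1, 2 and 3. With that mean as a covariate the log2 fold change was -0.99 for Fos (limma adjusted p = 0.0256) and 0.23 for Jund (adjusted p = 0.0551).

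Other markers of the dissection were read beside Fos. Red cell genes were lower in morphine without overlap for 4 of 5 members (15.7% of all tested genes were lower in this way), with a summed level of 421 to 595 FPKM in morphine and 757 to 1080 FPKM in saline, and 1 of them, Hbb-bt, fell (limma adjusted p = 0.0453). Endothelial and pericyte markers were lower for 7 of 8, 4 of them without overlap, with sums of 118 to 142 FPKM in morphine and 136 to 149 FPKM in saline. Of these 0 passed limma's test, and 4 were lower at an unadjusted p under 0.05, where 11.1% of all tested genes were lower. The shares of 15.7% and 11.1% also stand beside the counts of lower genes in the lists that follow. Summed astrocyte markers (975 to 1270 FPKM in morphine, 948 to 1200 FPKM in saline), microglial markers (170 to 202 FPKM in morphine, 182 to 204 FPKM in saline) and spinal neuron markers (1970 to 2360 FPKM in morphine, 2010 to 2440 FPKM in saline) overlapped, but single markers differed from the sums. Of 8 astrocyte markers 3 were lower without overlap, and of 11 spinal neuron markers 1 was, the glycine transporter gene Slc6a5, at 37.3 ± 3.84 FPKM in morphine and 55.9 ± 7.32 FPKM in saline (n = 3 each, with SD; limma adjusted p = 0.0574). Snap25, at 1640 FPKM in morphine and 1620 FPKM in saline, made up most of the neuronal sum. At an unadjusted p under 0.05 in limma, 2 of 8 astrocyte and 2 of 11 spinal neuron markers were lower. In the microglial list 1 of 8 was higher at that p (11.2% of all tested genes) and 0 lower. Oligodendrocyte markers summed to 17000 to 23100 FPKM in morphine and 14800 to 21700 FPKM in saline, with 0 of 8 at that p. Meningeal fibroblast markers were lower for 7 of 8 with a median log2 fold change of -0.63, 0 without overlap, and 0 passed limma's test (1 at an unadjusted p under 0.05). Their sums were 653 to 1240 FPKM in morphine and 750 to 1080 FPKM in saline. Ganglion and Schwann cell markers were lower for 3 of 4 tested with a median of -0.41, 0 without overlap and 0 passing (0 at an unadjusted p under 0.05), with sums of 59.7 to 268 FPKM in morphine and 134 to 284 FPKM in saline. Ependymal markers, 4 of them tested, summed to 17.2 to 20.6 FPKM in morphine and 11.9 to 15.5 FPKM in saline. One of them, Ccdc153, was called higher (limma adjusted p = 0.0488), at 1.36, 1.25 and 1.83 FPKM in morphine and 0.11, 0.53 and 0.08 FPKM in saline, but it passed the level filter only through morphine, as did Dynlrb2 of the same list. Of the sensory ganglion genes, Scn10a did not exceed 0.02 FPKM and Trpv1 did not exceed 0.24 FPKM in any library. The part of these cell types in the Fos result was not tested.

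The genes around AP-1 were read in 8 lists, from kinases to targets, none of whose other members passed limma's test. Fos and Fosb are co-induced with other early response genes, of which 25 were tested. Of these 0 passed, 8 were lower and 0 higher at an unadjusted p under 0.05 (11.1% and 11.2% of all tested genes), and the median was -0.18. Nr4a3, 1 of the 8, passed the level filter only through its saline libraries. Egr1, a zinc finger factor induced with Fos, was at 13.59, 11.68 and 13.10 FPKM in morphine and at 17.99, 18.12 and 22.32 FPKM in saline (log2 fold change -0.57, adjusted p = 0.0509). Arc, a synaptic protein of active neurons, was at 10.4 ± 0.777 FPKM in morphine and 13.5 ± 0.625 FPKM in saline (n = 3 each, with SD), with a limma adjusted p of 0.0643. The groups did not overlap for Egr1 and Arc, which were named for their small p. Of the 25 tested, 9 were lower without overlap, Nr4a3 among them, and 0 higher. Among all tested genes 15.7% were lower and 13% higher in this way.

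Of 30 tested kinases upstream of Fos and Jun, 0 passed limma's test, and 10 were lower and 3 higher at an unadjusted p under 0.05, where 11.1% of all tested genes were lower and 11.2% higher. Map3k13, a kinase that feeds the JNK pathway in neurons, was at 1.07 ± 0.0814 FPKM in morphine and 1.95 ± 0.0451 FPKM in saline (n = 3 each, with SD), a log2 fold change of -0.51 (limma adjusted p = 0.0533). Rps6ka3, the ERK-activated kinase RSK2, was at 4.35 FPKM in morphine and 5.74 FPKM in saline (adjusted p = 0.0692). The median of the list was -0.06.

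Of 16 tested regulators that act on the Fos and Jun promoters, 0 passed limma's test, with 5 lower and 1 higher at an unadjusted p under 0.05 (all tested genes: 11.1% lower, 11.2% higher). The acetyltransferases Ep300 and Crebbp, near relatives that Creb1 recruits, stood on opposite sides. Ep300 was at 5.59 FPKM in morphine and 7.38 FPKM in saline, and Crebbp at 8.68 FPKM in morphine and 5.68 FPKM in saline (limma adjusted p = 0.0927 and 0.0948). Of 12 genes that restrain AP-1 or take part in its turnover, 0 passed and 2 were lower at an unadjusted p under 0.05, close to that share. These were Itch, a ligase that marks Jun proteins for breakdown, at 16.3 FPKM in morphine and 19.0 FPKM in saline, and Dusp1, a phosphatase of the JNK and p38 kinases, at 8.40 FPKM in morphine and 10.8 FPKM in saline.

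Of 21 tested genes known from other systems to be under AP-1 control, 0 passed limma's test, 3 were lower and 1 higher at an unadjusted p under 0.05, beside 11.1% lower and 11.2% higher among all tested genes, and the median was 0.01. Vegfa, an angiogenic factor, was at 29.0 ± 2.87 FPKM in morphine and 37.1 ± 2.73 FPKM in saline, and Mmp14, a membrane protease, at 2.93 ± 0.396 FPKM in morphine and 3.98 ± 0.403 FPKM in saline (n = 3 each, with SD). Their adjusted p in limma was 0.0834 and 0.133. The opioid peptide genes Penk and Pdyn, whose promoters hold AP-1 and cyclic AMP response elements, were at 253 ± 57.3 and 16.8 ± 3.86 FPKM in morphine and at 224 ± 30.1 and 16.1 ± 2.46 FPKM in saline (n = 3 each, with SD). Their adjusted p in limma was 0.637 and 0.913.

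Other basic leucine zipper factors that can pair with Jun or Fos, or bind like elements, numbered 25 tested genes. None passed limma's test (0 of 25), 2 were lower and 2 higher at an unadjusted p under 0.05, and the median was -0.04. Among all tested genes 11.1% were lower and 11.2% higher at that p, the share for all 3 lists given here. Cebpb, a factor of the acute phase response, was at 4.58 FPKM in morphine and 3.45 FPKM in saline, and Atf6, the membrane-bound sensor of endoplasmic reticulum stress, at 5.25 FPKM in morphine and 6.48 FPKM in saline (limma adjusted p = 0.112 and 0.114). Of 13 tested genes that rise with Atf3 after nerve injury 0 passed, and 1, the growth arrest gene Gadd45a, had an unadjusted p under 0.05, at 14.3 FPKM in morphine and 12.5 FPKM in saline. The next of these by p, the growth cone gene Gap43, was at 149 ± 24.3 FPKM in morphine and 123 ± 21.5 FPKM in saline (n = 3 each, with SD), with a limma adjusted p of 0.342. Of 12 tested targets of Atf4, which also drives Atf3, 0 passed. Their median was -0.12, and 8 of the 12 had a log2 fold change below 0. At an unadjusted p under 0.05 in limma, 3 were higher and 0 lower. Among the 3 was Psat1, an enzyme of serine synthesis, at 94.1 FPKM in morphine and 80.7 FPKM in saline (limma adjusted p = 0.0961). The others, Cebpb and Atf5, were also the genes counted as higher in the leucine zipper list.

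**Figure D4:**
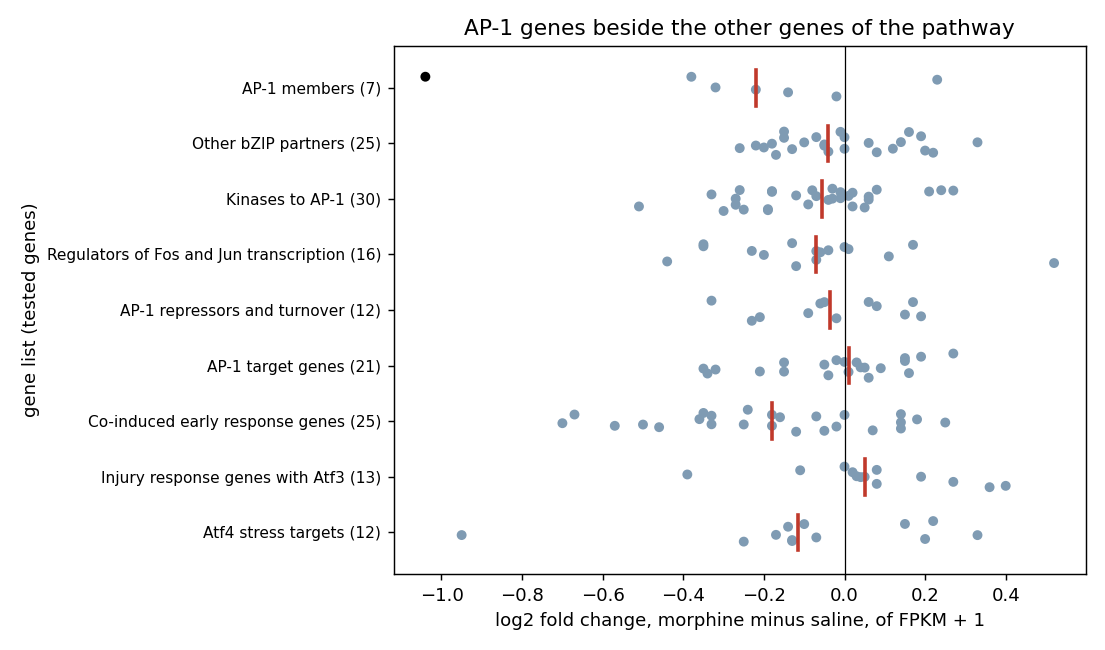
Log2 fold change (morphine minus saline, of FPKM + 1) of every tested gene in the AP-1 list and 8 lists around it, with the number tested in brackets; red bars are medians, and the black point marks the only gene with an adjusted p under 0.05, Fos. The AP-1 and co-induced lists have medians of -0.22 and -0.18, and the target list 0.01.

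The genes whose profile over the 6 libraries was nearest to that of Fos were Gabrb2, Htr2a, Lmbrd2 and Pcdhgc3, among 12453 named protein-coding genes. Likeness was measured as the root mean square difference of log2(FPKM + 1) values centred on their own means, which was 0.115 for Gabrb2 (a GABA-A receptor subunit), 0.123 for Htr2a (a serotonin receptor), 0.129 for Lmbrd2 and 0.133 for Pcdhgc3, where the values of Fos themselves had a root mean square of 0.538. Gabrb2, Htr2a and Lmbrd2 passed the level filter only because all their saline libraries reached 1 FPKM. Their place among the genes compared thus already leans on the difference between the groups. Gabrb2, for example, was at 0.83, 1.25 and 0.89 FPKM in morphine and at 2.90, 2.78 and 3.70 FPKM in saline. Like Fos, it was highest in morphine 2 among the morphine libraries, which follows from choosing it by these same values. For Jun the nearest were Zscan25, Cbfb, Gpr137b and Folh1, at 0.026 to 0.029 beside 0.126 for Jun itself. Their high value in morphine 2, shared with Jun, follows from the same way of choosing.

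**Figure D5:**
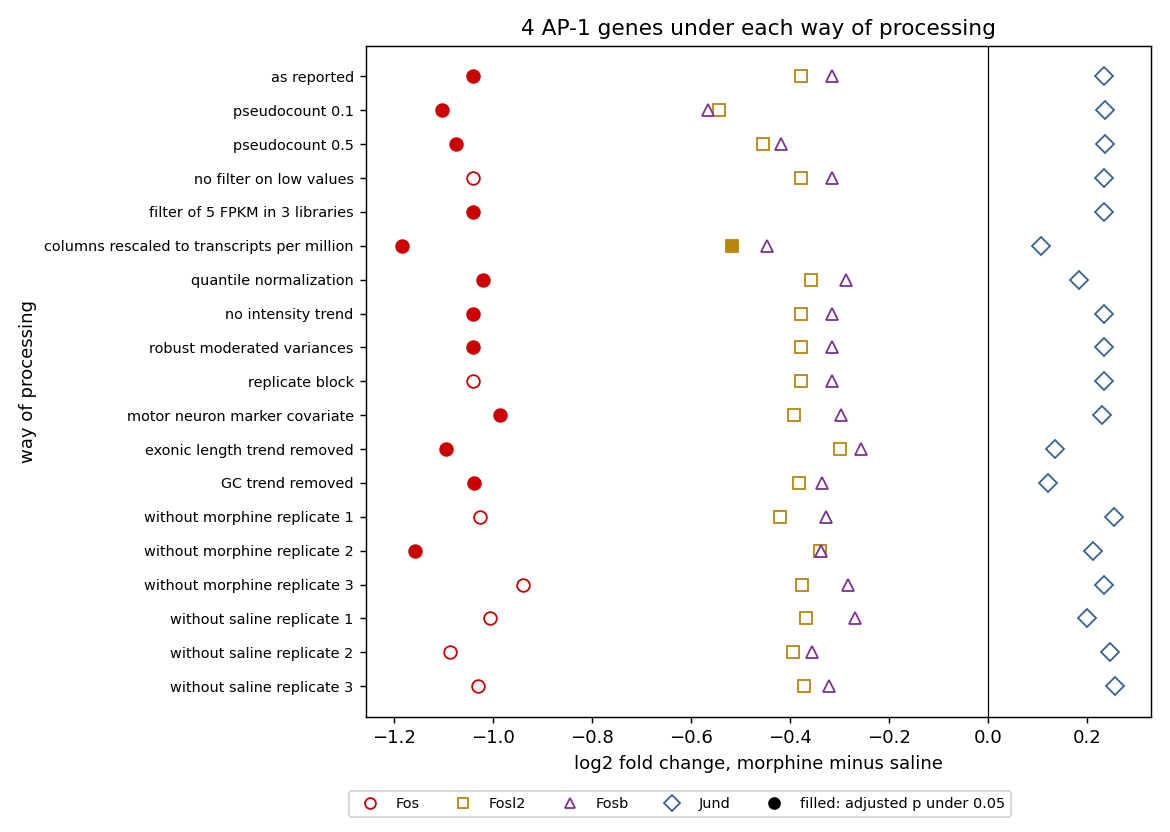
Log2 fold change (morphine minus saline) of Fos, Fosl2, Fosb and Jund under each way of processing, 1 row each; filled symbols have an adjusted p under 0.05. Fos stays between -1.18 and -0.94 and is filled in 12 of 19 rows, and Jund stays between 0.11 and 0.26 with no filled symbol.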

How the data were processed

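Per the labels, total RNA went into libraries with a stranded KAPA kit. The unit of the deposited table is FPKM, computed by the authors and given to 2 decimals. The submitters' processing notes name STAR, RSEM, Trimmomatic, bcl2fastq 2.19.0 and mm10, and the sources used here give neither annotation release nor strand setting. The 6 columns were matched to samples by their descriptions.

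The 14614 of 52513 genes that reached 1 FPKM in 3 or more libraries were compared as log2(FPKM + 1), with the variance prior following mean level, in limma 3.58.1 under R 4.3.3, two-sided, with Benjamini-Hochberg adjustment over all of them at a threshold of 0.05. The fit was tested on simulated data. Atf3 was read from the same fit without the filter. Fold changes on this scale understate the change of low genes. Exonic lengths, base composition and positions came from GENCODE M21 on mm10 (14588 tested genes matched) and promoter windows from RefSeq on GRCm38.p6. Depth was found as the value at which FPKM of genes with 1 transcript of 300 to 1500 nt came nearest to whole fragments. At it, 74.8% to 78.0% of the values lay within 0.05 of a whole number, or within the table's rounding where wider, against 12.7% to 16.8% for even values. Fragments of a gene use its longest transcript. Python 3.11.15 and SciPy 1.17.1 gave the exact tests. Leaving out a library kept the same tested genes.

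The AP-1 genes, the lists and the motifs were chosen with earlier results of these data known. From each list the 2 genes with the smallest p were named where none passed. Penk, Pdyn, Hbb-bt, Scn10a, Trpv1, Ccdc153, Dynlrb2, Nr4a3, Slc6a5, Snap25, Atf5 and the overlapping genes were named outside that rule.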

Additional observations from a re-analysis of the deposited data

How the results depend on the processing

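Of the results for single AP-1 genes, Fosb, Jun, Junb, Jund and Atf3 kept their direction and their side of the threshold under every setting run on them. Fos kept its direction but not its call: its log2 fold change of -1.04 had an adjusted p of 0.145 with no filter on low values and 0.0521 with the replicate number as a block, and leaving out 1 library gave -1.16 to -0.94. Fosl2 passed at -0.52 after rescaling to TPM. Fosl1 turned to 0.0093 after quantile normalization, and ran from -0.14 to 0.094 with 1 library left out. The cause was not tested.

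The count of AP-1 genes called was 0 with no filter, 0 with the replicate block, 2 after rescaling to TPM and 0 to 1 with 1 library left out. Of all genes, 220 were called (62.7% of them higher), against 45 with no filter, 338 with a filter of 5 FPKM, 954 after rescaling to TPM (10.6% higher), 102 after quantile normalization (46.1%), 36 with no intensity trend (38.9%), 349 with robust variances, 24 with the replicate block, 946 with the motor neuron covariate, 33 with the exonic length trend removed (42.4%), and 468 with the base composition trend removed, a setting chosen after seeing the data. With 1 library left out the count ran from 1 to 805, the highest without morphine 2.

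Whether the shared replicate numbers pair the libraries cannot be told. Deviations of same-numbered libraries from their group means correlated at -0.129, 0.161 and 0.295 across tested genes. The last was the highest of all pairs, while morphine 1 and 2 each correlated best with another number. Deviations from a mean of 3 libraries are tied to each other, so these correlations cannot exclude a shared batch. Columns of the same number carry matching runs of numbers in both groups, with no meaning given. Depth limits Atf3 and Fosl1 most, with 17 to 46 fragments per library.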
